A study of Mus musculus with 20 samples.

Results

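Infarction and reperfusion of the mouse heart were compared through the difference of their responses: the log2 change from sham to myocardial infarction, minus the log2 change from sham to ischemia-reperfusion. A member is a gene whose difference passed the test in the gene counts (adjusted p under 0.05, edgeR's quasi-likelihood test) and had the same sign in transcript abundances (TPM, length-corrected values scaled to a fixed sum) summed per gene. There were 37 such genes among 19741 tested, 23 with a higher difference and 14 with a lower one. A positive difference means that the log2 change was more positive after infarction than after reperfusion; it does not say which of the 4 groups moved.

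Poly(A) RNA of mouse heart was sequenced, and 16 of the 20 libraries, the short-read ones, enter the contrast as 4 groups of 4. Infarction (MI) tissue was taken 72 h after surgery and, like that of its sham group (MISham), came from the infarct core together with the area around it. Reperfusion (IR) tissue was taken after 40 min of "LCA", an abbreviation that the labels leave unexplained, and 72 h of reperfusion, and, like that of its sham group (IRSham), came from the core. The labels give no time for the shams, no hour of the day, and no strain, age, allele or animal for any library, so p-values measure the spread between libraries, which may be technical. The kind of injury, the region sampled and anything else that set the infarction libraries apart from the reperfusion libraries cannot be told apart.

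In a permanent infarct the muscle dies without return of blood flow, while in reperfusion flow returns to muscle that has been starved of oxygen. Both are followed by entry of immune cells, by activation of fibroblasts into contractile, matrix-secreting myofibroblasts, and by regrowth of small vessels, while the loss of cardiomyocytes lowers RNA for contraction and for oxidation of fat. In bulk tissue, fewer cells of a type and less RNA per cell cannot be told apart.

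The counts had uneven depth: MI libraries held 57.2 to 63.1 M counts and the other 12 held 24.3 to 31.8 M. Counts of some genes also differed between the 2 sides of the study where TPM did not. Gapdh, a glycolytic enzyme with many pseudogene copies, had 113 ± 25.6 CPM (SD, n = 4; CPM are counts scaled to the library total) in MISham and 2897 ± 251 CPM in IRSham, but 1892 ± 169 TPM and 2161 ± 323 TPM in the same libraries. Of 461 genes called higher in MISham than in IRSham, 383 were pseudogenes, and none of the 37 members is one. A factor that multiplies a gene alike in an injured group and its sham leaves the difference of responses as it was. One that acts unequally on them can change it. Which of these holds for the count differences was not tested. Both tables come from the same libraries, so the second is no independent replicate. MISham 1 and 3 stood above MISham 2 and 4 in inflammatory, matrix and cell cycle genes, and IR 1 and 3 stood nearer to the shams in heart muscle genes than IR 2 and 4. Values without each pair are given where they matter.

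In counts, MI against MISham called 12821 genes, 64.9% of those tested, and IR against IRSham called 11381, 57.7%; 5238 genes rose in both, 4901 fell in both and 16 went opposite ways. In TPM, limma called 79% and 74.3% of the genes tested, and 8414 rose in both, 1474 fell in both and 13 went opposite ways. The tables set the zero of a response differently: over the 13622 genes tested in both, the median response was 0.10 after infarction and 0.04 after reperfusion in counts, and 0.71 and 0.58 in TPM. A rise or fall of a small size therefore depends on the table, while the shift is of like size in both responses (0.61 and 0.54) and largely leaves their difference. The difference of the responses called 38 genes, 0.192% of those tested, while 2905 (14.7%) had an unadjusted p under 0.05, 1862 higher and 1043 lower. The 38 split into 23 higher and 15 lower with TMM scaling, DESeq2's size factors in its place called 12 higher and 20 lower, and library size alone called 21 and 13. In TPM, limma called 18 of 14323 genes (0.126%), 14 higher and 4 lower. Of the 13622 genes tested in both tables, 10942 (80.3%) had the same sign. The gene called in counts whose sign did not hold in TPM was Zbed5, at -2.12 in counts and 0.25 in TPM; its count level was 3.64 higher on the log2 scale in MISham than in IRSham, against -0.03 in TPM.

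**Figure D1:**
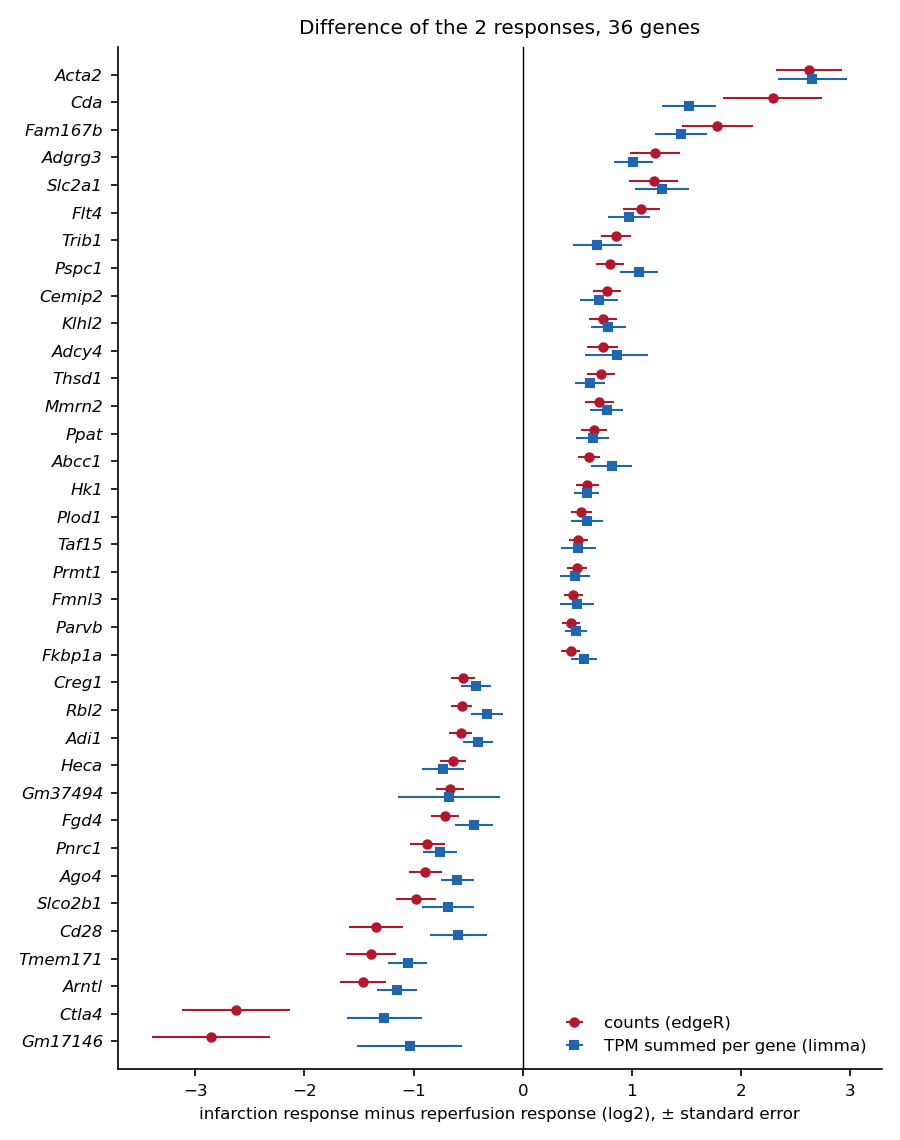
Difference of responses (log2, MI against MISham minus IR against IRSham) for 36 members, from counts (red circles) and from summed TPM (blue squares), with standard errors as bars. Each of the 36 lies on the same side of 0 in both tables, from -2.85 to 2.63 in counts.

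The tests passed in both tables for 7 members: Acta2, Cda, Fam167b, Adgrg3 and Pspc1 were higher, and Tmem171 and Arntl lower. In counts all 37 kept their sign in each setting that tested them, including the omission of each library in turn. They were chosen in these same libraries, which favours a kept sign, so nothing is read from it. Their sign in TPM was not followed across the settings. The calls of the members were less stable. The members nearest the threshold were Cda, Creg1 and Fkbp1a (adjusted p = 0.049, 0.0462 and 0.0462), and just outside it lay Gbgt1, Plekha3 and Slc4a8 at -1.66, 0.50 and 1.14 (adjusted p = 0.0539 for each). Acta2 and Arntl were among 3 members that passed the test in all 16 fits that left out 1 library, Flt4 passed in 11, and the other 33 passed in 2 to 9. Leaving out 1 library gave between 3 called genes (without MI 1, MISham 2 or IRSham 4) and 282 (without IR 3).

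**Figure D2:**
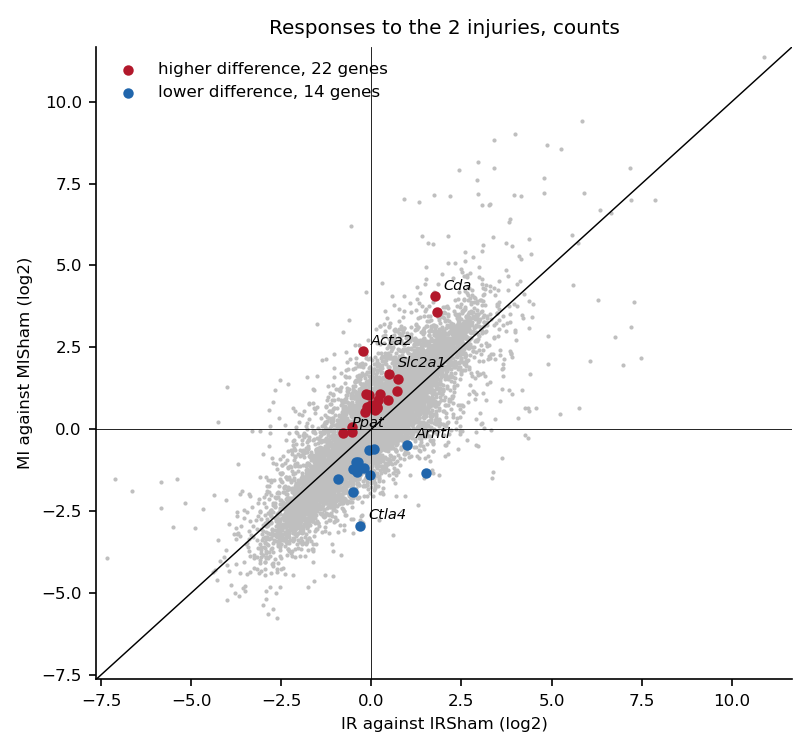
Response to reperfusion (IR against IRSham, log2, horizontal axis) and to infarction (MI against MISham, log2, vertical axis) for each gene tested in counts (grey points), with 36 members in red and blue. The line marks equal responses; the red members lie above it, and 3 of them, with Ppat the lowest, had a called fall after reperfusion and no called change after infarction in counts; in TPM the same 3 had a called rise after infarction and no called change after reperfusion.

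Among the 23 higher members, 20 rose after infarction in counts. Of these, 7 also rose after reperfusion, and 13 had no called change there. In TPM all 23 rose after infarction, and 12 of those 13, all but Acta2, also rose after reperfusion. The other 3, Ppat, Hk1 and Parvb, fell after reperfusion in counts with no called change after infarction, whereas in TPM they rose after infarction (0.50, 0.75 and 0.58) with no called change after reperfusion (-0.14, 0.16 and 0.09). All 14 lower members fell after infarction in counts; 7 also fell after reperfusion, 5 had no called change, and 2, Arntl and the non-coding Gm17146, rose. In TPM 8 of the 14 fell after infarction and 6 were not called, of which Arntl and Creg1 had positive values (0.28 and 0.15). After reperfusion 1 of the 14, Adi1, fell in TPM, 4 rose (Arntl, Creg1, Heca and Pnrc1) and 9 were not called. Over all genes in counts, 78.6% of the 5238 that rose in both had the larger rise after infarction, and 72.5% of the 4901 that fell in both had the larger fall there.

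The difference of responses is also the difference between the injured groups minus the difference between the shams, so each member was read both ways. In counts, for 23 members MI and IR differed by the test and the shams did not. For 10 the shams differed and the injured groups were not called: Acta2, Pspc1, Abcc1, Hk1, Plod1, Parvb, Tmem171, Arntl, Ctla4 and Gm17146. For 4, Ppat, Fmnl3 and Heca among them, both were called. MI against IR was thus called for 27 members, where 6.97% of all genes were, and MISham against IRSham for 14, where 3.2% were; the contrast that chose the members contains both, so nothing is read from these shares. All 23 higher members were lower in MISham than in IRSham and all 14 lower members were higher, which the contrast favours. In TPM, limma called MI against IR for 11 members (1.16% of all genes) and MISham against IRSham for 3, Acta2, Tmem171 and Arntl (0.14% of all genes); the shams kept these signs for all 23 higher members and for 13 of the 14 lower ones.

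Acta2, smooth muscle actin, the contractile actin of vascular muscle and of myofibroblasts, had the largest positive difference. Its levels were 399, 390, 373 and 377 CPM in the MI libraries 1 to 4 and 90.9, 47.8, 77.8 and 78.0 CPM in MISham. In IR they were 290, 290, 348 and 290 CPM, and in IRSham 224, 356, 330 and 528 CPM. MI stood above MISham with no overlap, whereas IR lay within the range of IRSham, and IRSham lay above MISham with no overlap. The log2 response was 2.39 after infarction and -0.24 after reperfusion (adjusted p = 0.346), a difference of 2.63 ± 0.30 (SE, adjusted p = 0.00605). The injured groups differed by 0.34 (adjusted p = 0.397) and the shams by -2.29 (adjusted p = 4.50e-06), so the larger part of the difference lay between the shams. TPM gave a difference of 2.65 ± 0.32 (limma, adjusted p = 0.00312). Tagln, an actin-binding smooth muscle protein, differed by 1.67 (unadjusted p = 0.023) at a count level of 1.54 ± 0.320 CPM in MI that its TPM of 133 ± 31.3 did not match. Cnn1 and Myh11, calponin and smooth muscle myosin, differed by 0.04 and 0.29, and Postn, the periostin of activated fibroblasts, by 0.21; none of these was called. In the list of 24 myofibroblast genes 1 gene was called, 5 were higher and 3 lower at an unadjusted p under 0.05, and the median difference was 0.39, against 0.04 over all genes. Among all 19741 genes 0.192% were called, and 1862 were higher and 1043 lower at that unadjusted threshold.

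**Figure D3:**
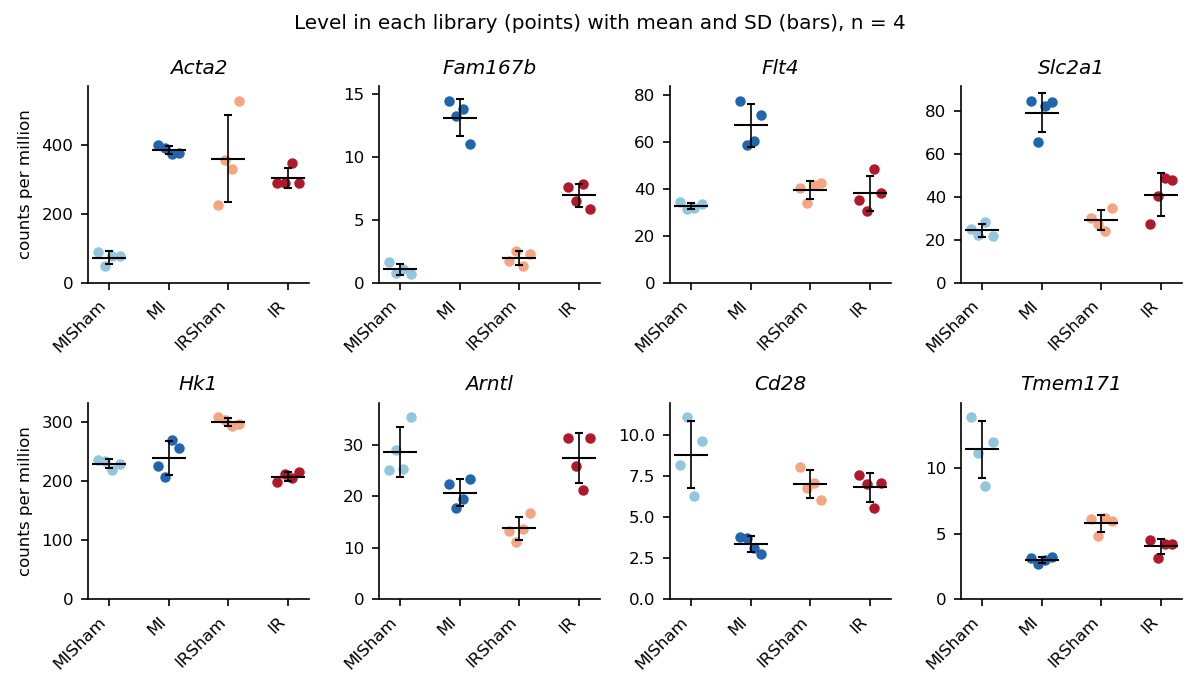
CPM of 8 members in each library (points), with the mean and SD of the 4 libraries of a group (black bars), on linear axes that start at 0. Acta2 was high in 3 of the 4 groups and low in MISham, while Flt4 and Slc2a1 were highest in MI and Arntl was lowest in IRSham.

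Endothelial cells line the vessels. A group of 5 higher members with functions there (Flt4, Adgrg3, Adcy4, Thsd1 and Mmrn2) was formed after their values were seen. It is not a full list of members active in endothelium. In counts the reperfusion response was called in none of the 5, which depends on the choice of genes. It was called higher in 7 of the 23 higher members, Slc2a1, Cemip2 and Fmnl3 among them. In TPM the reperfusion response was called higher in all 5, at 0.47 to 0.65, with every IR library above every IRSham library. Limma called that response for 74.3% of all genes in TPM, and its median over the genes tested in both tables was 0.58. The rise of these 5 after reperfusion was thus of the size of the shift of that table. Their infarction response in TPM was 1.24 to 1.49, against a median of 0.71. Flt4, the receptor of the lymphatic growth factor VEGF-C, had 77.6, 58.5, 60.5 and 71.6 CPM in MI and 34.3, 31.6, 31.8 and 33.4 CPM in MISham. It had 35.4, 30.7, 48.4 and 38.2 CPM in IR and 40.2, 34.2, 41.6 and 42.6 CPM in IRSham. MI stood above every other library, and the other 3 groups overlapped. The responses were 1.03 and -0.05 (TPM 1.49 and 0.51), and the difference 1.09 ± 0.17 (adjusted p = 0.0245). Prox1 and Lyve1, which are used as lymphatic markers, differed by -0.39 and 0.48 and were not called. Lyve1 is also in the list of resident macrophage genes. Prox1 fell in both injuries, from 130 CPM in MISham to 26.2 in MI and from 117 in IRSham to 31.0 in IR. Whether either gene measures lymphatic vessels in this tissue was not tested.

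In the other 4 members of this group every MI library likewise stood above the other 12 in CPM. That is not particular to the group. Of the 23 higher members, 22 had every MI library above every IR library, and 20 had every MI library above every MISham library. The contrast that chose the members favours this, and the share over all genes was not counted. In TPM MI overlapped IR for Adcy4. Adgrg3, an adhesion receptor of the G protein-coupled kind also known in granulocytes, differed by 1.21 ± 0.23. Adcy4, a cyclase that makes cyclic AMP, differed by 0.73 ± 0.14. Thsd1, a thrombospondin-repeat protein of vessel walls, differed by 0.72 ± 0.13. Mmrn2, a matrix protein laid down by endothelium, differed by 0.70 ± 0.13, with 84.8 to 87.8 CPM in MI and 50.8 to 64.9 CPM in MISham. IR 3, at 43.7 CPM, stood below the other IR libraries (60.1 to 60.6). In CPM every IR library of Mmrn2 lay below every IRSham library (60.7 to 64.9), the reverse of TPM. The adjusted p-values of these 4 members were 0.0378, 0.0443, 0.0336 and 0.0378 by edgeR.

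The 20 genes of the endothelial list, which names none of those members, leaned the same way without passing the test: 0 were called by edgeR and 0 by limma on TPM, 11 were higher and 0 lower at an unadjusted p under 0.05, and the median difference was 0.30. Of all 19741 genes, 1862 were higher and 1043 lower at that threshold, with a median of 0.04. Pecam1 and Cdh5, adhesion molecules of endothelial junctions, differed by 0.63 and 0.60 (adjusted p = 0.068 and 0.11). Pecam1 had 339 ± 19.1 CPM in MI, 187 ± 6.81 in MISham and 242 ± 39.3 in IR; in IRSham it spanned 192 to 223. Without MISham 1 and 3, 2 of the 20 were called higher and 0 lower, among 1096 genes in all (5.18% of those tested). Without IR 1 and 3, 7 of the 20 were called, all higher, among 129 genes in all (0.617% of those tested). IR 3 had the highest mean log2 CPM of the list among the IR libraries, 6.85 against 6.42 to 6.63; its part in the result was not tested.

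Among metabolic members, Slc2a1, the GLUT1 glucose transporter that hypoxia induces, was higher in MI. Its levels were 85.0, 65.9, 82.7 and 84.2 CPM in MI and 25.2, 22.3, 28.3 and 22.1 CPM in MISham. They were 27.5, 40.4, 49.0 and 47.8 CPM in IR and 30.3, 27.6, 24.0 and 34.9 CPM in IRSham. MI lay above all other libraries, IR overlapped IRSham in CPM but not in TPM, and MI 2 was lower than the other MI libraries. Both responses were called, the one to reperfusion at 0.50, and the difference was 1.20 ± 0.23 (adjusted p = 0.0431).

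Hk1, the hexokinase that traps glucose inside cells, differed by 0.59 ± 0.11 (adjusted p = 0.0332). It had 225, 207, 270 and 256 CPM in MI, 236, 234, 219 and 229 CPM in MISham, 198, 212, 204 and 215 CPM in IR and 308, 302, 292 and 296 CPM in IRSham. In CPM MI and MISham overlapped and IR lay wholly below IRSham, which was the highest group. In TPM the pattern was another: MI (73.6 to 84.8) lay wholly above MISham (44.3 to 49.5) and had the highest mean, while IR (59.7 to 76.7) overlapped IRSham (58.1 to 66.4).

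Of the 21 genes for glycolysis and glucose uptake these 2 were called, 11 were higher and 1, Eno3, the muscle enolase, lower at an unadjusted p under 0.05. The median was 0.30 in counts and 0.45 in TPM. Over all 19741 genes 0.192% were called, 1862 were higher and 1043 lower at that unadjusted threshold, and the medians were 0.04 and 0.12. Pfkp and Pfkl, phosphofructokinases, differed by 0.69 and 0.46, and Eno1, the widely expressed enolase, by 0.69 (adjusted p = 0.068, 0.071 and 0.12), while Eno3 differed by -0.68. The 16 hypoxia-inducible genes had a median of 0.37, with Slc2a1 called and 5 higher and 0 lower at an unadjusted p under 0.05. Hilpda, a lipid droplet protein, differed by 0.87 and P4ha1, a collagen prolyl hydroxylase, by 0.56 (adjusted p = 0.14 and 0.13). The 26 genes of fatty acid oxidation had a median of -0.46, with 0 called by edgeR or limma and 5 lower and 0 higher at an unadjusted p under 0.05. That median was 0.12 without IR 1 and 3, the IR libraries with more heart muscle RNA (mean log2 CPM of this list 7.03 and 7.17, against 6.02 and 6.11 in IR 2 and 4), so its direction rested on them.

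The remaining higher members had differences below 1 except Cda and Fam167b. Cda, cytidine deaminase of pyrimidine salvage, had 6.45, 6.18, 4.11 and 7.00 CPM in MI and 2.40, 3.18, 3.56 and 3.11 CPM in IR, over shams of 0.0787 to 0.495 (MISham) and 0.725 to 1.09 (IRSham). It rose in both injuries, and the difference was 2.29 ± 0.45 (adjusted p = 0.049; TPM 1.53 ± 0.25). Fam167b had 11.0 to 14.4 CPM in MI, 0.746 to 1.64 in MISham, 5.86 to 7.84 in IR, with 1.33 to 2.55 in IRSham, and differed by 1.78 ± 0.33 (adjusted p = 0.0343). In both genes MI stood above IR with no overlap.

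Pspc1, Taf15 and Prmt1 act on RNA. Pspc1, a protein of nuclear paraspeckles, differed by 0.80 ± 0.13, Taf15, an RNA-binding protein, by 0.51 ± 0.09, and Prmt1, which methylates arginines of proteins, by 0.50 ± 0.09 (adjusted p = 0.0245, 0.0332 and 0.0332). Pspc1 had 18.9 to 21.3 CPM in MI, 11.3 to 13.7 in MISham, up to 18.5 in IR, with 17.1 to 19.0 in IRSham, and every MISham library lay below the other 12. Of 29 splicing regulators tested, 0 were called by edgeR or limma, 8 were higher and 1 lower at an unadjusted p under 0.05, and the median was 0.10. The same counts over all 19741 genes were 1862 higher and 1043 lower, with a median of 0.04. Hnrnpa1 differed by 0.51 (adjusted p = 0.083), and Rbfox1, a splicing factor of muscle and brain, by -0.86 (adjusted p = 0.12).

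Trib1, a pseudokinase that steers protein degradation, had 58.6 to 64.5 CPM in MI, above the other 12 libraries, and differed by 0.85 ± 0.14. Cemip2, a surface protein linked to breakdown of hyaluronan, differed by 0.77 ± 0.13, and Klhl2, an adaptor of a ubiquitin ligase, by 0.74 ± 0.13. Plod1, which hydroxylates lysines of collagen, had 261 to 282 CPM in MI, 158 to 182 in MISham, 211 to 248 in IR, with 201 to 223 in IRSham, and differed by 0.54 ± 0.10. Abcc1, an export pump, Fmnl3, a formin that builds actin filaments, Parvb, an adaptor at integrin adhesions, Fkbp1a, which binds the calcium release channel, and Ppat, the first enzyme of purine synthesis, differed by 0.61, 0.47, 0.44, 0.44 and 0.65. Ppat had 23.5 to 25.2 CPM in MI, 24.7 to 29.4 in MISham, 16.7 to 21.9 in IR, with 31.4 to 36.2 in IRSham; in counts the higher difference came with a fall of 0.78 after reperfusion and a value of -0.13 after infarction, and in TPM with a rise of 0.50 after infarction (limma, adjusted p = 0.00067) and a value of -0.14 after reperfusion.

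Arntl (Bmal1), the activator that pairs with Clock or Npas2 to drive daily rhythms, was the lower member with the most stable call. It had 22.3, 17.6, 19.4 and 23.3 CPM in MI and 25.0, 28.9, 25.2 and 35.3 CPM in MISham, and 31.2, 25.8, 21.3 and 31.2 CPM in IR and 13.3, 11.2, 13.7 and 16.8 CPM in IRSham. In CPM MI lay below MISham and IR above IRSham, in both cases with no overlap. The responses in counts were -0.47 (adjusted p = 0.00983) and 0.99 (adjusted p = 2.39e-05), and the difference -1.46 ± 0.21 (adjusted p = 0.0158; TPM -1.15 ± 0.18, limma adjusted p = 0.0245). The shams differed by 1.06 (adjusted p = 0.00018), and MI and IR by -0.41 (adjusted p = 0.114). In TPM both responses were positive, 0.28 after infarction (limma, adjusted p = 0.062, MI overlapping MISham) and 1.43 after reperfusion, so the fall after infarction was seen in counts alone. Of 16 genes called in opposite directions by the 2 responses in counts, Arntl is 1 of 2 whose difference was called.

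Arntl and Clock bind E-boxes, and Dbp and its relatives bind D-boxes. RefSeq windows of the 250 bases before the start (GRCm38.p6) were at hand for 13 of the 14 clock genes, and 4 genes held the E-box letters CACGTG and 1 the D-box letters TTATGTAA on either strand, against 6.02% and 0.819% of 32851 windows. No window of Arntl held either. The 13 genes had 18 windows, so the counts of genes and the shares of windows are unlike measures. The stretches of Cry1 (chr10:85185089-85185134, minus strand) and Per3 (chr4:151044796-151044890, minus strand) are shown, motifs in capitals, because both genes were called between the shams in counts, in opposite directions (Per3 also in TPM):
Cry1: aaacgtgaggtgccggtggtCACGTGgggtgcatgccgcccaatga
Per3: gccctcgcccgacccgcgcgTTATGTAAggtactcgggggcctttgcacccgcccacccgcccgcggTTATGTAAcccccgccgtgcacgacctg
A match is a stretch of letters and not a shown site of binding.

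Of the 14 clock genes 1, Arntl, was called, and at an unadjusted p under 0.05 there were 2 higher and 4 lower. Among all 19741 genes 0.192% were called, and 1862 were higher and 1043 lower at that unadjusted threshold. Per2, a repressor of the clock, differed by 1.03 and Dbp, an output factor, by 0.82, while Clock, Cry1 and Npas2 differed by -0.46, -0.46 and -0.68 (adjusted p = 0.078, 0.18, 0.093, 0.16 and 0.27). Between the shams 8 of the 14 were called in counts, where 3.2% of all genes were, 3 higher in MISham and 5 lower; limma called 4 in TPM, 1 higher and 3 lower, where 0.14% of all genes were. Dbp had 14.9 ± 1.43 CPM in MISham and 55.1 ± 2.25 CPM in IRSham, and Per3 had 27.5 ± 3.10 and 59.0 ± 6.47 CPM. Arntl and Cry1 were higher in MISham than in IRSham (1.06 and 0.50), and Dbp, Per3 and Per2 lower (-1.89, -1.10 and -1.06). The labels give no hour of sampling, and its part in the Arntl result was not tested.

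Of the lower members, Cd28 and Ctla4 are the activating and the restraining co-receptor of T cells and neighbour each other in the RefSeq gene order. Cd28 had 3.80, 3.71, 3.13 and 2.79 CPM in MI and 8.14, 11.1, 6.30 and 9.61 CPM in MISham, and 7.55, 7.03, 5.55 and 7.09 CPM in IR and 8.05, 6.78, 7.09 and 6.01 CPM in IRSham. MI lay below every other library. The difference was -1.35 ± 0.25 (adjusted p = 0.0343). Ctla4 had few counts, with 0.383 to 0.626 CPM in MI, up to 4.90 in MISham, the highest group, 0.598 to 1.55 in IR, with 0.645 to 1.63 in IRSham, and differed by -2.63 ± 0.49 (adjusted p = 0.0378). The TPM differences were -0.59 ± 0.26 and -1.27 ± 0.34 and did not pass limma's test. Cd3e and Cd3g, parts of the T cell receptor complex, differed by 1.23 and 1.33, with neither called, at 0.163 to 0.720 CPM in the group means, while Foxp3, of regulatory T cells, differed by -1.96 (adjusted p = 0.33). Of 18 lymphocyte genes 14 had a positive difference, 0 were called by edgeR or limma, and 3 were higher and 1 lower at an unadjusted p under 0.05. For comparison, 10770 of all 19741 genes had a positive difference in counts, and 1862 were higher and 1043 lower at that threshold.

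Tmem171, a membrane protein, had 3.13, 2.72, 3.03 and 3.24 CPM in MI, 13.9, 11.2, 8.66 and 12.0 CPM in MISham, 4.51, 3.18, 4.19 and 4.25 CPM in IR and 6.14, 4.84, 6.16 and 6.01 CPM in IRSham. In counts it fell in both injuries, with no overlap between an injured group and its sham, and MISham was the highest group. In TPM it fell after infarction (-0.99), while the value after reperfusion was 0.07 (limma, adjusted p = 0.64) and IR overlapped IRSham. The difference was -1.39 ± 0.23 (adjusted p = 0.0245; TPM -1.05 ± 0.18, limma adjusted p = 0.0333).

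The other lower members, apart from Gm17146, had differences between -0.98 and -0.55. Slco2b1, an organic anion carrier also found in resident macrophages, had 12.1 to 13.4 CPM in MI and 17.0 to 32.7 CPM in the other 12 libraries, and differed by -0.98 ± 0.18. Ago4, an Argonaute of small RNA silencing, differed by -0.89 ± 0.15, and Pnrc1, a co-regulator of nuclear receptors, by -0.87 ± 0.16. Fgd4, an activator of CDC42, differed by -0.71 ± 0.13, and Rbl2, the pocket protein p130 that holds cells out of division, by -0.56 ± 0.10. Rbl2 had 28.5 to 31.5 CPM in MI, 55.5 to 67.3 in MISham, 35.4 to 41.0 in IR, with 49.0 to 56.5 in IRSham, and it fell in both injuries in counts. In TPM neither of its responses was called (-0.11 and 0.21), and MI and IR each overlapped their shams. Heca, Adi1, an enzyme of methionine salvage, and Creg1, a glycoprotein of lysosomes, differed by -0.64, -0.57 and -0.55. The non-coding Gm37494 and Gm17146 differed by -0.66 and -2.85; Gm17146 is annotated as antisense, and with the strand setting not given in the sources used here its reads cannot be separated from those of the gene it overlaps.

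The 44 gene lists were read by the sign of their median in both tables: 28 were higher in both, 14 lower in both, and 2 had opposite signs. Relative to the medians over all genes, 0.04 in counts and 0.12 in TPM, 26 were higher, 14 lower and 4 differed. Genes called in counts occurred in 4 lists. All 28 higher lists kept the sign of their count median without MISham 1 and 3 and without IR 1 and 3; of the 14 lower lists 7 did, and the sarcomere, calcium handling and fatty acid oxidation lists were among those that did not.

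The largest positive medians among lists with at least 9 genes tested belonged to inflammation, with few single genes past even an unadjusted threshold. Over all 19741 genes 1862 were higher and 1043 lower at an unadjusted p under 0.05, with a median of 0.04 in counts. A positive difference in counts was found for 10770 of them. The 13 neutrophil genes had a median of 1.45 (TPM 1.27), all 13 positive, with 0 called by edgeR or limma and 1, Mmp9, higher at an unadjusted p under 0.05. Their response was 2.16 after infarction and 0.64 after reperfusion in counts, as medians, and 2.34 and 0.91 in TPM. The 30 cytokines and chemokines had a median of 1.07, with 28 positive, 0 called by edgeR or limma and 8 higher at an unadjusted p under 0.05; Cxcl2 and Cxcl3, which attract neutrophils, differed by 4.71 and 4.32 (adjusted p = 0.21 and 0.19). The neutrophil list spread over the libraries of a group: MISham 1 and 3 stood at 2.44 and 2.84 as mean log2 CPM and MISham 2 and 4 at 0.61 and 0.39. The 20 DNA replication genes were positive without exception, with a median of 0.53, 0 called by either tool and 8 higher at an unadjusted p under 0.05; Mcm7, of the replicative helicase, differed by 0.71 (adjusted p = 0.068).

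Resident fibroblast genes had the lowest median among those lists, -0.58 in counts and -0.55 in TPM, with 0 of 12 called by either tool and 6 lower and 0 higher at an unadjusted p under 0.05. Clec3b and Scara5 differed by -1.76 and -1.51 (adjusted p = 0.093 and 0.11); both fell in each injury, by 3.13 and 3.04 after infarction and by 1.37 and 1.53 after reperfusion. The 24 genes for matrix proteins had a median of 0.27 and no called gene by either tool, with 0 higher and 2 lower at an unadjusted p under 0.05. Without MISham 1 and 3 that median was 0.92 and 13 of the 24 were called, among 1096 genes called in all (5.18% of those tested), 943 of them higher. The cell cycle list had a median of 0.45, with 0 of 24 called by either tool and 2 higher and 1 lower at an unadjusted p under 0.05. Without that sham pair its median was 1.15, with 14 called higher and 1 lower. MISham 1 and 3 stood at 6.70 and 7.27 in the matrix list, as mean log2 CPM, and MISham 2 and 4 at 5.60 and 5.97. No fit left out MISham 2 and 4 together, and the cause of the gain in calls was not tested.

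**Figure D4:**
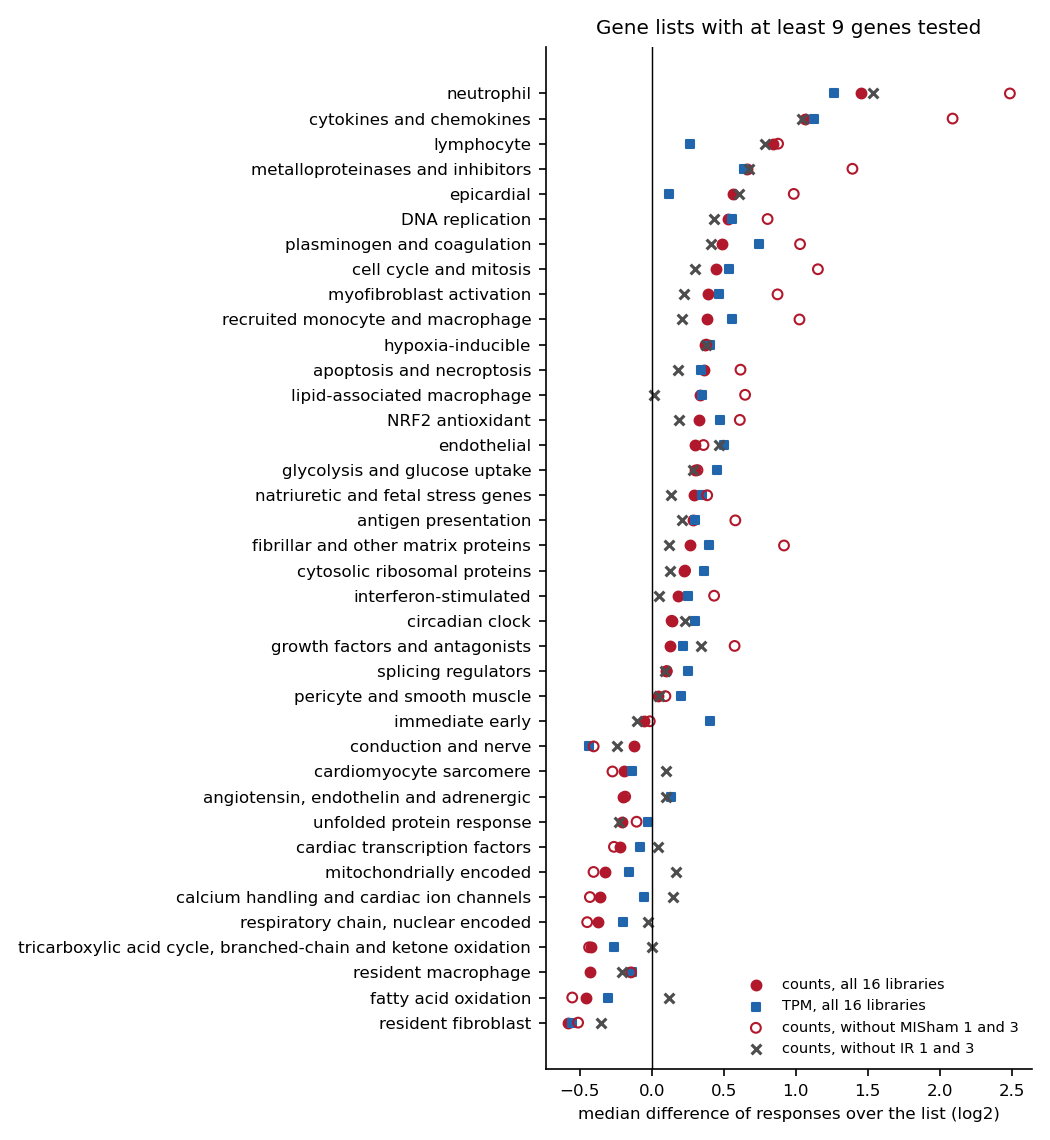
Median difference of responses (log2) over each of the 38 lists with at least 9 genes tested, in counts (red circles), in TPM (blue squares), in counts without MISham 1 and 3 (open circles) and without IR 1 and 3 (crosses). Inflammatory and matrix lists lie farther right without the sham pair, and the fatty acid oxidation median passes from -0.46 to 0.12 without the IR pair.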

How the data were processed

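Per the labels, poly(A) RNA of mouse heart was sequenced on Illumina instruments in 16 libraries (4 groups of 4); 4 long-read libraries were not analysed here. Tools and build, per the submitters' processing notes, were kallisto 0.50.1, featureCounts 2.0.1, SAMtools 1.7, HISAT2 2.2.1 and GRCm39; the strand setting and annotation release are not given in the sources used here. The authors deposited raw counts per gene (63318 genes) and TPM per transcript (163740). Symbols came from GENCODE M21 by ID (52080 genes); TPM was summed over the 138329 transcripts with a gene, and 21.6% to 31.9% of a library's TPM lay on transcripts without one. The 2 columns of values that name no library were not used.

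Counts were fitted in R 4.3.3 with edgeR 4.0.16 (TMM, minimum count 10, minimum total 15, robust quasi-likelihood, 1 mean per group), and log2(TPM + 1) with limma 3.58.1 for genes with a mean TPM of at least 1. Differences in TPM are on the log2(TPM + 1) scale, which understates low genes. P-values were adjusted by Benjamini-Hochberg over all genes tested, with calls at adjusted values under 0.05. CPM is TMM-scaled. The SE of a log2 value in counts was derived from its test statistic. Both fits were tested on simulated data. The members and the 44 lists were chosen with earlier results of these data known. One member is not reported here by name. Genes named were the other members, and from each list up to 6 genes by p. Other genes (Postn, Prox1, Lyve1, Gapdh, Cd3e, Cd3g, Cd3d, Cd4, Foxp3, Cnn1, Myh11, Zbed5, Per3, Gbgt1, Plekha3, Slc4a8) were chosen after their values were seen. Alternatives were other scalings, filters, tests (DESeq2 1.42.0), pseudocounts, and fits without libraries or with replicate numbers as a block.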

Additional observations from a re-analysis of the deposited data

Results flagged for a closer look

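The difference between the 2 responses passed edgeR's test (the interaction of injury and kind of operation) for each of these genes, on the log2 scale. The values for higher genes were 2.63 (Acta2), 2.29 (Cda), 1.78 (Fam167b), 1.21 (Adgrg3), 1.20 (Slc2a1), 1.09 (Flt4), 0.85 (Trib1), 0.80 (Pspc1), 0.77 (Cemip2), 0.74 (Klhl2), 0.73 (Adcy4), 0.72 (Thsd1), 0.70 (Mmrn2), 0.65 (Ppat), 0.61 (Abcc1), 0.59 (Hk1), 0.54 (Plod1), 0.51 (Taf15), 0.50 (Prmt1), 0.47 (Fmnl3), 0.44 (Parvb) and 0.44 (Fkbp1a). Those for lower genes were -0.55 (Creg1), -0.56 (Rbl2), -0.57 (Adi1), -0.64 (Heca), -0.66 (Gm37494), -0.71 (Fgd4), -0.87 (Pnrc1), -0.89 (Ago4), -0.98 (Slco2b1), -1.35 (Cd28), -1.39 (Tmem171), -1.46 (Arntl), -2.12 (Zbed5), -2.63 (Ctla4) and -2.85 (Gm17146). Zbed5 had the opposite sign in TPM.

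One library stood apart from the other 3 of its group, relative to the range of the group, in 10 of 152 gene-by-group sets. Chance marks about 1 in 20 sets. In a tight group the distance can be small, as for Klhl2 in MI, which spanned 33.3 to 33.8 CPM. IR 3 was such a library for Acta2 (348 CPM), Klhl2 (26.3 CPM) and Mmrn2 (43.7 CPM). MI 3 was for Adgrg3 (9.58 CPM) and Ppat (23.5 CPM), MI 2 for Slc2a1 (65.9 CPM) and MI 4 for Klhl2 (33.3 CPM). IRSham 4 was for Pspc1 (19.0 CPM) and Cemip2 (28.6 CPM), and IRSham 2 for Tmem171 (4.84 CPM).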

How the results depend on the processing

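In counts the 38 called genes kept their sign under every setting that tested them, which their choice in the same libraries favours. The number of calls moved. Counts called 23 genes higher and 15 lower, both tables together 23 and 14, and TPM 14 and 4. Leaving out 1 library gave 2 to 203 higher and 1 to 79 lower in counts, 2 to 198 and 1 to 72 in both tables, and 2 to 66 and 0 to 15 in TPM. It gave 12076 to 12929 genes for infarction, 10530 to 11504 for reperfusion, 539 to 771 between shams and 857 to 1868 between injured groups. Without MISham 1 and 3 the counts were 943 and 153, 878 and 127 in both tables, TPM 407 and 16, and the shams 1674. Without IR 1 and 3 they were 84 and 45, 77 and 40, and 24 and 10. DESeq2's size factors gave 12 higher and 20 lower (12 higher in both tables), and library size alone 21 and 13, so the balance of directions turned with the first of these scalings. DESeq2's Wald test gave 244 and 281 (221 and 236 in both tables; 963 between shams). No filter gave 81 and 36 (79 and 32), and voom with sample weights 100 and 53 (99 and 48). In TPM, a pseudocount of 0.1 gave 8 higher, no filter 2 lower, array weights 73 and 15, and rescaling to matched transcripts, chosen after seeing the data, 33 higher. Thinning the MI counts to the depth of the rest gave 34 calls, 32 of them shared. The cause of these shifts was not tested.

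Samples share only a replicate number: the correlation of same-numbered deviations ran from -0.145 to 0.214, and 5 of 16 libraries matched their own number best. With the replicate block 7 genes were higher and 3 lower, in counts and in both tables, and 2 and 1 in TPM.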

Other observations

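Some genes of the unfolded protein response, which fold and export proteins in the endoplasmic reticulum, differed between the shams. As mean log2 CPM of the list, MISham 1 to 4 stood at 6.365, 5.910, 6.422 and 6.608. IRSham spanned 5.833 to 5.955, so MISham 2 lay within its range. Of 19 tested, 8 were called higher in MISham than in IRSham and 0 lower in counts, where 3.2% of all genes were called in either direction, 461 of them higher in MISham, 383 of these pseudogenes. In TPM limma called 3 higher and 0 lower, where 0.14% of all genes were called in either direction. Hspa5, the chaperone BiP, was higher by 1.07, Manf, a secreted stress factor, by 1.37 and Hyou1, a chaperone of the same compartment, by 1.14. In TPM the 3 sham differences were 0.99, 1.13 and 0.94, each called by limma. The difference of responses was called for 0 genes of the list by edgeR or limma. At an unadjusted p under 0.05 there were 2 higher and 4 lower, against 1862 and 1043 of all 19741 genes.

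Without IR 3 the difference of responses was called for 282 genes. Chosen after their values were seen, Igfbp3, a carrier of insulin-like growth factors, differed by 2.44, Dll4, a Notch ligand of sprouting vessels, by 1.53, and Robo4, an endothelial guidance receptor, by 0.77. With all 16 libraries the same genes differed by 1.86, 1.10 and 0.63 and none was called.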
